A study of Danio rerio with 4 samples.

Results

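The cadherin and catenin genes examined here are cdh1, cdh2, ctnna1, ctnnb1, ctnnb2, ctnnd1 and jupa, taken by symbol from the 32266 gene rows of the table of unique molecular identifier (UMI) counts, with cdh1 fixed as ENSDARG00000102750 and ctnnb1 as ENSDARG00000014571. Of these 7 genes, 6 had at least 1 UMI, and together they held 705 of 194065 gene UMIs, or 0.363%. The symbol table used here lists cdh2 as CDH2 (ENSDARG00000018693), ctnnb1 as CTNNB1 and ctnnd1 as CTNND1 (ENSDARG00000078233). It gives the symbol JUP to 2 rows, ENSDARG00000070787 and ENSDARG00000059067, without saying which of them is jupa, so their UMIs were summed and are called jup here; the second row had 0 UMIs in every library.

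Classical cadherins are transmembrane proteins that bind the same cadherin on a neighbouring cell. Inside the cell their tail binds β-catenin or its relative plakoglobin, α-catenin joins that pair to actin filaments, and p120-catenin binds closer to the membrane and keeps the cadherin from being taken up and degraded. β-catenin that is not held at the membrane is destroyed unless Wnt signalling protects it, after which it acts in the nucleus as a transcriptional coactivator. In the zebrafish gastrula, E-cadherin is the broad early cadherin and is needed for epiboly and cell rearrangement, while N-cadherin acts in the mesoderm and the neural plate.

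RNA was measured by CEL-Seq2, which counts the 3′ end of each RNA molecule, in cells of AB-strain embryos 9 hours post fertilization (hpf). The β-catCA group was sorted from embryos in which some cells carried a constitutively active β-catenin. The control group was sorted from embryos in which some cells carried green fluorescent protein (GFP). In both groups the GFP-negative cells were taken, as cells that do not express the introduced construct. How cleanly they were sorted was not tested. Each group had 2 libraries, called lots 1 and 2. The sources used here do not give how the mosaics were made, how many embryos entered a library or whether each lot was a clutch of its own. The p-values therefore cover the spread between these libraries alone, and that spread may be technical. In RNA from sorted cells, fewer cells of a type and less RNA per cell cannot be told apart.

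β-catCA lot 2 held 8403 gene UMIs, against 59260 to 65098 in the other 3 libraries, so 1 UMI stood for 124.5 counts per 1000000 (CPM, scaled by trimmed-mean factors, TMM) in that lot and for 15.2 to 16.5 CPM in the others. Where no UMI was counted, up to 3 could have been expected, a floor of 373 CPM in β-catCA lot 2 and of 45.7 to 49.4 CPM elsewhere. Over all 1071 genes that passed the filter on low counts, edgeR's quasi-likelihood test called 3 higher and 6 lower in the β-catCA mosaics at an adjusted p under 0.05.

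The RNA of the complex was dominated by its cytoplasmic partners. ctnnb1, which encodes β-catenin, held 53.0% of the UMIs of the 7 genes and ctnna1 (ENSDARG00000102441), which encodes the actin-linking α-catenin, held 30.5%. The cadherins followed with 8.94% for cdh2, the N-cadherin gene, and 3.26% for cdh1, the E-cadherin gene. ctnnd1, which encodes p120-catenin, held 3.55%, jup 0.709% and the second β-catenin gene ctnnb2 (ENSDARG00000023472) none. CEL-Seq2 counts each molecule once whatever its length, so these are shares of molecules counted, within the limit that 3′ ends outside the annotated gene are not counted; how far the annotation misses such ends was not tested.

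**Figure D1:**
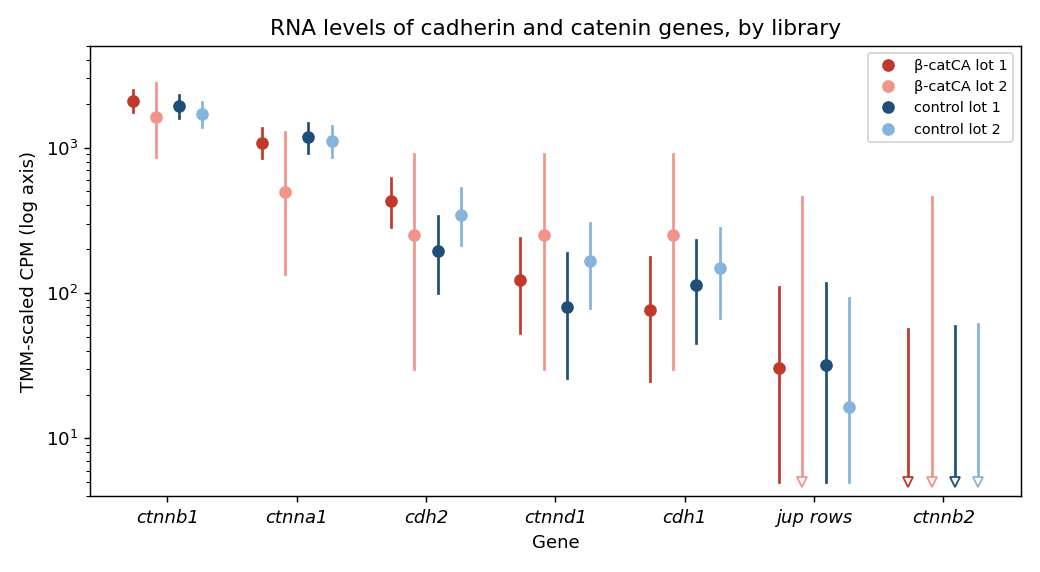
TMM-scaled CPM on a log axis for each of the 7 genes in the 4 libraries; points are the libraries and lines their exact 95% Poisson intervals, which cover counting error only and are cut at the lower edge, and open triangles are counts of 0. ctnnb1 lay between 1618 and 2104 CPM in every library, ctnna1 below it, and ctnnb2 had no UMI; the wide lines are those of β-catCA lot 2.

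In the order of levels, ctnnb1 had more UMIs than ctnna1 in 4 of 4 libraries, with ratios of 1.64 (lot 1) and 1.54 (lot 2) in control libraries and of 1.94 (lot 1) and 3.25 (lot 2) in β-catCA libraries. In each library the exact 95% binomial interval of ctnnb1's share of their joint UMIs lay above 50%, with lower bounds from 50.1% in β-catCA lot 2 to 59.2% in β-catCA lot 1. ctnna1 had between 2 and 6.08 times the UMIs of cdh2, a difference beyond counting error in 3 libraries and not in β-catCA lot 2, where the counts were 4 and 2. cdh2 and ctnnd1 could be ordered only on the sum of the libraries, 63 UMIs against 25, and by library only in β-catCA lot 1. ctnnd1 and cdh1 could not be ordered: over all libraries ctnnd1 had 52.1% of their joint UMIs, with an exact 95% interval from 37.2% to 66.7%.

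Among all 8640 genes with a UMI, ctnnb1 stood at rank 65 by summed UMIs and ctnna1 at rank 120, where rank 1 is the most abundant. cdh2 stood at rank 532, ctnnd1 at 1229, cdh1 at 1308 and the JUP row with UMIs at 3547. Genes with the same count share a rank, so the lower ranks are coarse.

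Among the cadherins, cdh2 was counted 12 times in control lot 1, 21 times in control lot 2, 28 times in β-catCA lot 1 and 2 times in β-catCA lot 2. Scaled in the same order, these were 193, 346, 427 and 249 CPM. The lowest and the highest of the 4 values were control lot 1 and β-catCA lot 1, and the groups overlapped. The log2 change of cdh2, β-catCA minus control, was 0.56 (SE 0.47) with a 95% interval from -0.39 to 1.51 and did not pass (edgeR adjusted p = 0.75). Without β-catCA lot 1 it was -0.13, and without control lot 2 it was 1.03, with 1 library left in a group each time.

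cdh1 was too sparse for the filter, and its values come from the fit of all 8640 genes with a UMI. It stood at 113 CPM (lot 1) and 148 CPM (lot 2) in control cells and at 76.2 CPM (lot 1) and 249 CPM (lot 2) in cells from β-catCA embryos. The 249 CPM of β-catCA lot 2 were 2 UMIs, where the share of the pooled controls would give 1.12 UMIs at that depth. The groups overlapped, with the controls inside the range of the β-catCA lots. The fitted log2 change of -0.57 had a 95% interval from -2.16 to 1.03, which spans levels from 0.224-fold to 2.04-fold of the controls (edgeR unadjusted p = 0.49, adjusted p = 0.77). Averaged over libraries, CPM went the opposite way, 130.4 in control and 163 in β-catCA libraries, and without β-catCA lot 1 the fitted change was 0.29. In the fit of all 8640 genes 0% of genes had an adjusted p and 2.55% an unadjusted p under 0.05. Its median log2 change was -0.17, against -0.029 in the filtered fit. The 4 tested members were lower in it than in the filtered fit: ctnnb1 at -0.15 against 0.12, ctnna1 at -0.50 against -0.25, cdh2 at 0.37 against 0.56 and ctnnd1 at 0.018 against 0.18. The change of cdh1 is therefore not on the scale of theirs.

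In counted UMIs the balance of the pair leaned to cdh2. Any 3′ ends of either gene outside its annotation would be missed, which was not tested and which the intervals do not cover. cdh2 made up 84.8% of the joint cdh1 and cdh2 UMIs in β-catCA lot 1 (28 of 33, exact 95% binomial interval 68.1% to 94.9%) and 50% in β-catCA lot 2 (2 of 4, interval 6.76% to 93.2%). In the controls it made up 63.2% in lot 1 (12 of 19, interval 38.4% to 83.7%) and 70% in lot 2 (21 of 30, interval 50.6% to 85.3%). The intervals of control lot 1 and β-catCA lot 2 included 50%, so these libraries alone do not show the lean. Over all libraries the share was 73.3% (63 of 86, interval 62.6% to 82.2%). Control libraries averaged 66.6% ± 4.84 and β-catCA libraries 67.4% ± 24.6 (SD, n = 2 each). Their difference of 0.845 percentage points (β-catCA minus control) was smaller than either SD. It was 18.3 points without β-catCA lot 2, -16.6 points without β-catCA lot 1, -2.58 points without control lot 1 and 4.27 points without control lot 2, so its sign depended on single libraries.

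Both cadherins together had fewer UMIs than ctnnb1 in each library. ctnnb1 had 6.32 times (lot 1) and 3.43 times (lot 2) their joint UMIs in control cells, and 4.18 times (lot 1) and 3.25 times (lot 2) in the other group. As a share of all 7 genes, cdh1 and cdh2 made up 8.68% and 14.2% of control UMIs and 13.1% and 17.4% of β-catCA UMIs, in lots 1 and 2 each time. These ranges overlapped, and the difference of the group means was 3.796 percentage points, against SDs of 3.92 (control) and 3.04 (β-catCA; n = 2 each). It was 1.03 points without control lot 1, 1.65 when β-catCA lot 2 was left out, 5.94 without β-catCA lot 1 and 6.57 without control lot 2.

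Among the catenins, ctnnb1 was counted 120 times (lot 1) and 103 times (lot 2) in control cells, and 138 times (lot 1) and 13 times (lot 2) in cells from β-catCA embryos. In CPM, the control values of 1932 and 1696 lay between the β-catCA values of 2104 and 1618. Its fitted change amounted to 1.08-fold, with a 95% interval from 0.742-fold to 1.59-fold (edgeR adjusted p = 0.94), and the direction was the opposite with DESeq2 size factors and in 3 more of the 10 alternative fits. In β-catCA lot 2 the pooled control share would give 15.5 UMIs where 13 were counted. ctnnb2 had 0 UMIs in 4 libraries, and no fold can be given.

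ctnna1 was counted 73 times (lot 1) and 67 times (lot 2) in control cells, and 71 times (lot 1) and 4 times (lot 2) in cells from β-catCA embryos. That came to 1175 and 1103 CPM in control lots 1 and 2, then 1083 and 498 CPM in β-catCA lots 1 and 2. Both β-catCA values lay below both control values, lot 1 by little and lot 2, on its 4 UMIs, by much more; the pooled control share would give 9.76 UMIs there. Of the 4 genes of the complex that passed the filter, ctnna1 was the 1 whose groups did not overlap, as was the case for 40.8% of the 1071 tested genes. Control libraries averaged 1139 ± 51.0 CPM and β-catCA libraries 790 ± 414 CPM (SD, n = 2 each). The log2 change of -0.25 (SE 0.32) had a 95% interval from -0.88 to 0.39 and did not pass (edgeR adjusted p = 0.87). The value rested on the shallow library: it was -0.088 without β-catCA lot 2 and -1.21 with β-catCA lot 2 alone in its group (edgeR adjusted p = 0.51).

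α-catenin binds β-catenin, and the share of ctnna1 in their joint UMIs does not depend on depth or scaling. It was 34.0% in β-catCA lot 1 (71 of 209, exact 95% interval 27.6% to 40.8%) and 23.5% in β-catCA lot 2 (4 of 17, interval 6.81% to 49.9%). In the controls it was 37.8% in lot 1 (73 of 193, interval 31.0% to 45.1%) and 39.4% in lot 2 (67 of 170, interval 32.0% to 47.2%). Each of these 4 intervals overlapped the others. The group means were 38.6% ± 1.12 (control) and 28.8% ± 7.38 (β-catCA; SD, n = 2 each), a difference, β-catCA minus control, of -9.87 percentage points, which was -4.65 points without β-catCA lot 2 and -15.1 points when β-catCA lot 1 was left out. This was 1 of 5 shares computed within the complex, and the 1 whose groups did not overlap. In CPM, groups did not overlap for 40.8% of the 1071 tested genes, so 1 of 5 does not single out this share. With 2 libraries against 2 the smallest two-sided p of an exact permutation test is 0.333, so no share was tested.

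**Figure D2:**
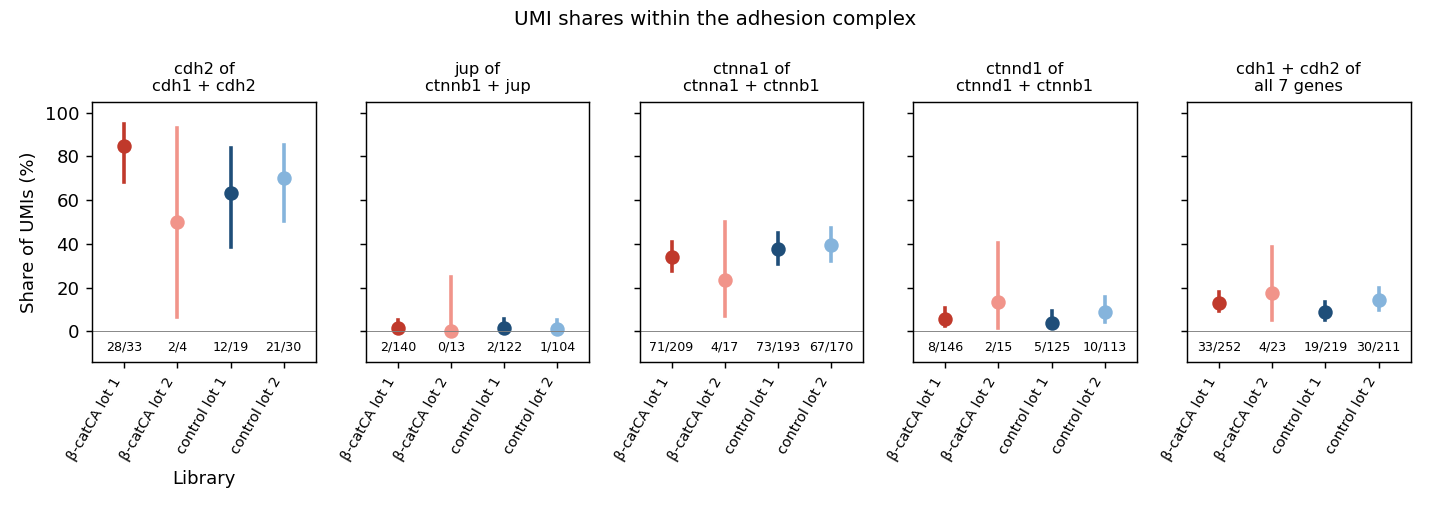
Percent of UMIs for 5 shares within the complex in each library; points are the libraries, lines exact 95% binomial intervals for counting error only, and the counts behind each share stand below the points. ctnna1 made up 23.5% to 34.0% of the joint ctnna1 and ctnnb1 UMIs in the β-catCA lots and 37.8% to 39.4% in the control lots, with overlapping intervals.

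ctnnd1 was counted 5 times (lot 1) and 10 times (lot 2) in control cells, and 8 times (lot 1) and 2 times (lot 2) in the β-catCA group. Control values were thus 80.5 and 165 CPM, and β-catCA values 122 and 249 CPM. The groups overlapped, and the highest value was the 2 UMIs of β-catCA lot 2. Its fitted log2 change of 0.18 had a 95% interval reaching from -1.41 to 1.76 (edgeR adjusted p = 0.96). It was -0.018 without β-catCA lot 2 and -0.27 without control lot 1, so its direction was not stable. As a share of the joint ctnnd1 and ctnnb1 UMIs, ctnnd1 made up 4% and 8.85% in control lots 1 and 2, 5.48% and 13.3% in β-catCA lots 1 and 2, and 6.27% over all libraries (25 of 399, exact 95% interval 4.10% to 9.11%).

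jup encodes plakoglobin, which can take the place of β-catenin on the cadherin tail and also belongs to desmosomes. It was counted 2 times (lot 1) and 1 time (lot 2) in control cells and 2 times (lot 1) and 0 times (lot 2) in the β-catCA group, no more than the floor of 3 UMIs in any library, so no fold change is given. Its share of the joint jup and ctnnb1 UMIs was 1.32% over all libraries (5 of 379), with an exact 95% interval from 0.430% to 3.05%. The 0 of 13 UMIs in β-catCA lot 2 left an interval up to 24.7%.

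In the comparison of the groups, 4 of the 7 genes passed the filter, ctnnb1, ctnna1, cdh2 and ctnnd1, and 0 of these 4 changed by edgeR's test, where 0.84% of all tested genes were called. At an unadjusted p under 0.05 the count was 0 of 4, against 10.5% of all tested genes. DESeq2 called 0 of the 6 genes with a UMI, and 1 of all 8640 genes with a UMI, so its count does not set the 6 apart. ctnnd1 entered the filter with 10 UMIs in control lot 2 and with 2 UMIs in β-catCA lot 2, which is 249 CPM at that depth. The fitted changes were positive for 3 of the 4 genes and negative for 1, while 48.2% of all tested genes had positive changes and the median over all tested genes was -0.029. These p-values do not show that the genes were alike in both groups: the intervals ran from 0.742-fold to 1.59-fold for ctnnb1, from 0.542-fold to 1.31-fold for ctnna1, from 0.765-fold to 2.84-fold for cdh2 and from 0.377-fold to 3.39-fold for ctnnd1. The summed UMIs of the 7 genes made up 0.357% and 0.356% of gene UMIs in control lots 1 and 2, and 0.387% and 0.274% (23 UMIs) in β-catCA lots 1 and 2.

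**Figure D3:**
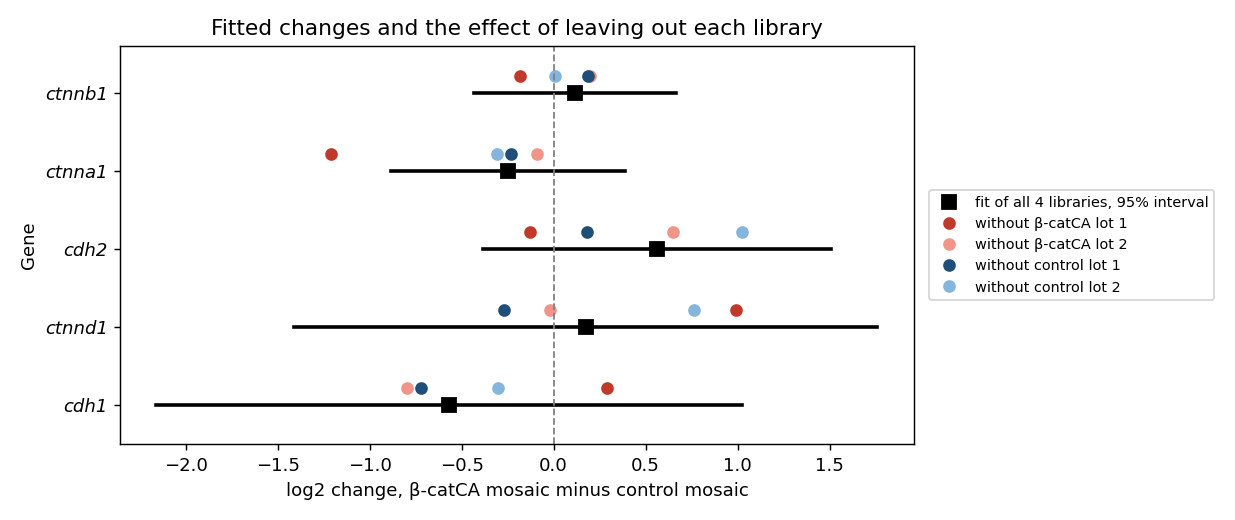
Fitted log2 change, β-catCA mosaic minus control mosaic, for the 5 genes with a fitted value; squares are fits of all 4 libraries with 95% intervals (cdh1 from the fit without a filter) and coloured points are fits without the named library. Each interval crosses 0, and leaving out β-catCA lot 1 moved ctnna1 from -0.25 to -1.21 and cdh1 from -0.57 to 0.29. The median change over all genes was -0.17 in the fit without a filter and -0.029 in the filtered fit, so cdh1 is not on the scale of the others.

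Genes that work with the complex were taken as 7 lists with 214 rows in all, of which 122 had a UMI and 23 were tested. By edgeR's test 0 of the 23 changed, where 0.84% of all tested genes were called. At an unadjusted p under 0.05 the count was 0 of 23, against 10.5% of all tested genes. Of these 23 genes, the fitted change was above 0 in 14 and below 0 in 9, with a median of 0.10 on the log2 scale. Over all tested genes 48.2% had a change above 0. DESeq2 size factors moved the median of all tested genes from -0.029 to -0.17, so such signs are read only against that shift.

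Of 46 other cadherin and protocadherin rows, 14 had a UMI and 1 was tested. cdh6, a type II cadherin gene, was counted 11 and 16 times in control lots 1 and 2, and 15 and 0 times in β-catCA lots 1 and 2; its log2 change was -0.15 (SE 0.56, edgeR adjusted p = 0.96). PCDH10, a protocadherin gene, had 10 and 8 UMIs against 20 and 1 in the same order, and FAT1, a giant atypical cadherin gene, had 8 and 3 against 8 and 0. cdh6 with its 42 UMIs thus stood between cdh2 with 63 and ctnnd1 with 25. Of 16 rows of catenin relatives, 8 had a UMI and 0 were tested, and the 3 with the most UMIs were KPNA2, an importin with armadillo repeats (14 UMIs), CTNNBL1 (9 UMIs) and PKP4 (8 UMIs), which encodes a p120 relative.

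Among 31 rows of actin and its linkers, 8 were tested, 7 with positive and 1 with negative changes, and 0 passed. Over all tested genes 48.2% of changes were positive and 0.84% passed, and the direction of this list was not tested. The cytoplasmic actin gene actb2 averaged 3684 ± 611 CPM in control libraries and 4769 ± 759.9 CPM in β-catCA libraries (SD, n = 2 each). Its log2 change was 0.41 (SE 0.24; edgeR adjusted p = 0.57). CFL1, which encodes the actin-severing protein cofilin, had a log2 change of 0.64 (SE 0.39), and rhoaa, a small GTPase gene that controls actomyosin tension, had one of 0.23 (SE 0.39) with 1 UMI in β-catCA lot 2. LIMA1, which encodes an actin-binding protein that associates with α-catenin, was the negative member, with a log2 change of -0.57.

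Of 16 rows of nectins and other adhesion receptors, 6 had a UMI. alcamb, an immunoglobulin-family adhesion gene, was the 1 tested, with a log2 change of -0.36 (SE 0.59), and f11r.1, a junctional adhesion molecule gene, was counted 2 and 12 times in control lots 1 and 2 and 4 and 1 times in β-catCA lots 1 and 2. Of 29 desmosome and tight junction rows, 18 had a UMI and 0 were tested. The scaffold gene tjp1b had 6 and 5 UMIs in control lots 1 and 2 and 10 and 3 in β-catCA lots 1 and 2. That list summed to 322 and 279.9 CPM in control lots 1 and 2, and to 396 and 622 CPM in β-catCA lots 1 and 2, the last on 5 UMIs.

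Of 41 rows for cadherin turnover and transcription, 5 were tested and 0 passed. ctbp1, a corepressor gene, had a log2 change of 0.29 (SE 0.44), YES1, a Src-family kinase gene, one of -0.48 (SE 0.45), and KDM1A, a histone demethylase gene, one of -0.059 (SE 0.51). The cadherin repressor gene snai1a had 18 UMIs over all libraries and was not tested. Of 35 rows for β-catenin turnover and partners, 8 were tested, 5 positive and 3 negative, and 0 passed. Over all tested genes 0.84% passed and 48.2% of changes were positive, so these counts do not set either list apart. The phosphatase genes ppp2cb and PPP2CA had changes of 0.063 (SE 0.31) and 0.10 (SE 0.36), and SMARCA4, a chromatin remodeller gene, one of -0.067 (SE 0.40). The kinase gene GSK3B and the scaffold gene AXIN1 of the destruction complex, too sparse to test, had 17 and 32 UMIs over all libraries.

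**Figure D4:**
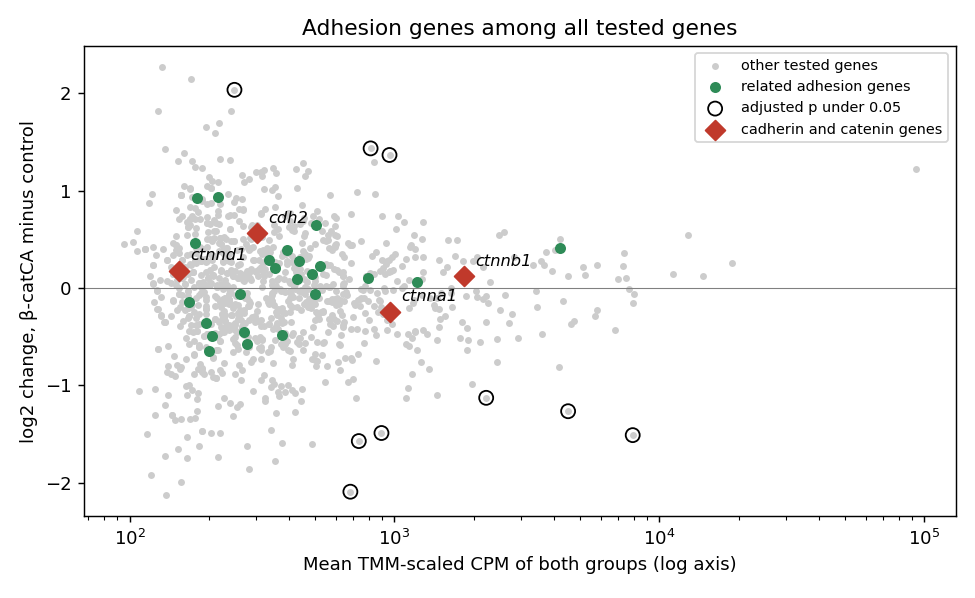
Fitted log2 change against the mean TMM-scaled CPM of both groups (log axis) for the 1071 tested genes; diamonds are the 4 tested cadherin and catenin genes, filled circles the 23 tested related genes and open rings the 9 genes past the threshold. The diamonds lie between -0.25 and 0.56, and none of them or of the filled circles carries a ring.

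Genes closest in level to the tested members were taken as those with the smallest root mean square difference in log2 CPM over the 4 libraries. For ctnnb1 these were alyref, PCNA and CCND1, at 0.17, 0.18 and 0.19 log2 units. For ctnna1 the nearest were EIF4B and TARDBP, at 0.15 and 0.21, with ENSDARG00000015853 between them at 0.20. cdh2 was nearest to ETV4, UMPS and NHP2, at 0.15, 0.20 and 0.21, and ctnnd1 to TIMM10, DHX38 and wbp11, at 0.085, 0.13 and 0.15. With 4 libraries and few UMIs per gene, these are descriptions of level and not of a shared pattern.

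The cells were checked against markers of the cell types a gastrula holds, with sums given for lots 1 and 2 in turn. Among the types where cdh2 is known to act, neural plate markers summed to 2399 and 1828 CPM in control cells and to 1784 and 1494 CPM (12 UMIs) in the β-catCA group. Axial mesoderm markers summed to 1980.3 and 2058 CPM in control cells and to 1738 and 1743 CPM (14 UMIs) in the β-catCA group. Both sums were lower in each β-catCA lot than in either control lot. Groups also did not overlap for 40.8% of the 1071 tested genes. For the axial marker tbxta, UMIs were 29 and 45 in the control lots and 22 and 0 in the β-catCA lots. Its log2 change was -1.07 (edgeR adjusted p = 0.40), while the 2 other tested axial genes, chrd and FOXA2, had changes of 0.17 and 0.034. The neural plate gene sox19a had 48 and 31 UMIs in the control lots and 25 and 3 in the β-catCA lots. Without tbxta the axial sums of the groups would overlap, and without sox19a the neural plate sums would. Each had the most negative change of the tested genes in its list. Leaving it out therefore draws the groups together by construction and does not describe the rest of the list. Of 6 tested neural plate genes, 5 had negative changes and SOX2 a positive one of 0.59. Changes were also negative in 5 of 5 tested genes of the paraxial and ventrolateral mesoderm list. Over all tested genes 48.2% of changes were positive, and the direction of these lists was not tested. Paraxial and ventrolateral mesoderm markers, with 9 of 9 rows carrying a UMI, overlapped between groups, at 3767 and 4792 CPM in control cells and 3812 and 2241 CPM (18 UMIs) in the β-catCA group.

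Epidermal ectoderm markers summed to 853 and 741 CPM in control cells and to 564 and 124 CPM in the β-catCA group, the last on 1 UMI. Both β-catCA lots thus lay below both control lots. Groups that do not overlap were common here, at 40.8% of the 1071 tested genes, and no such share was computed for sums of lists. Markers of the enveloping layer, an outer epithelium known for its cadherin junctions, lay the other way as a sum, higher in the β-catCA lots. They had 8 of 12 rows with a UMI and summed to 1127 and 839.8 CPM in control cells and to 1967 and 2489.5 CPM (20 UMIs) in the β-catCA group. The keratin genes krt8 and krt18a.1 supplied 154 and 75 of the 270 UMIs, while cldnf, anxa1c, grhl3 and krt17 were at 0. The keratin gene krt4 had 10 and 2 UMIs in the control lots and 7 and 1 in the β-catCA lots. For krt5 the counts were 4 and 2 against 5 and 0, so the higher sum was not shared by all keratins of the list. Both sparse keratins went untested. The 2 tested genes of the list, krt8 and krt18a.1, had positive changes, where 48.2% of all tested genes did. That of krt18a.1 was 0.77 (SE 0.43, edgeR adjusted p = 0.54). Among the tested members of all marker lists only krt8 passed, where 0.84% of all tested genes were called. It was 1 of 2 tested genes of the enveloping layer list (edgeR adjusted p = 0.038), with a log2 change of 1.37 and an SE of 0.35. That call was lost in 9 of 10 alternatives, and held without β-catCA lot 2 (edgeR adjusted p = 0.033); the log2 change stayed between 1.13 and 1.66 and the adjusted p ranged up to 0.995. Endoderm markers overlapped, at 853 and 609 CPM in control cells and 579 and 747 CPM (6 UMIs) in the β-catCA group, and yolk syncytial layer and germ cell markers had 1 and 8 UMIs in all. The part of these cell types in the levels of the cadherin and catenin genes was not tested.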

How the data were processed

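The authors deposited a table of unnormalized UMI counts, 1 row per Ensembl gene and 1 column for each of 4 CEL-Seq2 libraries, per the file headers. The submitters' processing notes name HTSeq 0.6.1, Bowtie2 2.3.1 and the genome build GRCz10. Not given in the sources used here are the UMI length, the rule for collapsing UMIs and the annotation release. The 5 rows that name no gene held 52.4% to 58.3% of all counts and were left out of library sizes and tests. Libraries of a group were not copies: over genes with at least 20 UMIs in a pair, chi-square per degree of freedom was 3.69 in the β-catCA and 2.27 in the control pair.

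The test was edgeR's robust quasi-likelihood test (edgeR 4.0.16, R 4.3.3) after filterByExpr with its minimum count of 10 and TMM scaling, and p-values were adjusted by Benjamini-Hochberg over all tested genes, with a threshold of 0.05. The filter kept 1071 genes; cdh1 was read from the same fit of all 8640 genes with a UMI, in which 0 genes passed and 220 had an unadjusted p under 0.05. DESeq2 1.42.0 was an alternative, beside other scaling factors, no filter, a lot block and leaving out each library. CPM are TMM-scaled. Intervals of counts and of shares are exact Poisson or Clopper-Pearson at 95% and cover counting error only. Those of log2 changes and folds are 95% t intervals of edgeR's fit, which include its estimate of the spread between libraries. Their SE was taken from the fitted change and its quasi-likelihood F statistic. The procedure was also run on simulated data, and the outcome of that run is not given here.

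Members and lists were chosen with earlier results of these data known. Of 274 list entries, 262 matched, 74 of them only without their paralog letter, so those rows may be another paralog; rows a symbol shares were all kept. Related genes were named as the 3 with the most UMIs per list, any gene that passed, and, for each tested member, the 3 nearest in level. Some results for genes named by this rule were left out of the text. LIMA1, snai1a, GSK3B, AXIN1, krt18a.1, krt4, krt5, tbxta, chrd, FOXA2, SOX2 and sox19a were named outside that rule, after their values were seen. Reads from near-identical or overlapping genes could be split or lost in counting.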

Additional observations from a re-analysis of the deposited data

How the results depend on the processing

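The number of genes called among all tested genes, 9, was 2 with DESeq2 size factors, 1 with upper-quartile factors, 2 with library totals alone, 0 without the filter, 1 by DESeq2 and between 1 and 15 with single libraries left out; its split of 3 higher and 6 lower became 0 and 2, 0 and 1, and 0 and 2 under the 3 scalings. None of the cadherin and catenin genes was called under any of these 10 alternatives, the block included. The cause of each shift was not tested. ctnnb1, at 0.12, was at -0.090 with DESeq2 size factors, -0.15 without the filter and -0.12 by DESeq2, and ran from -0.18 to 0.20 with single libraries left out. The same ranges were -0.80 to 0.29 for cdh1, -0.13 to 1.03 for cdh2, -0.27 to 0.99 for ctnnd1 and -1.21 to -0.088 for ctnna1, whose sign stayed negative under all 10. Lot 1 deviations of the groups had a correlation of -0.0061 over tested genes. In the β-catCA group these deviations depend on lot 2, where 8403 gene UMIs leave a large counting error. The correlation therefore cannot decide whether lots of the same number were paired. With the lot as a replicate block 2 genes were called, and the log2 changes were 0.055 for ctnnb1, -0.38 for ctnna1, 0.71 for cdh2, 0.59 for ctnnd1 and -0.35 for cdh1. Pooling UMIs in place of averaging libraries gave share differences of 13.7 points for cdh2, -5.38 for ctnna1, -0.091 for ctnnd1, -0.020 for jup and 2.06 for the cadherins. The main values not given above were 2.98 points for ctnnd1 and -0.586 points for jup, so pooling reversed the sign for ctnnd1. With single libraries left out, the ctnnd1 difference ran from -0.95 to 6.91 points. Each pooled value differed from the main value by less than the SD pooled over both groups. That bound is loose: for cdh2 the SD was 17.8 points, widened by the few UMIs of β-catCA lot 2. No change of jup was fitted, since its counts were at or under the floor. Depth limits cdh1, ctnnd1 and jup in all libraries and every gene in β-catCA lot 2.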
